A study of Mus musculus with 12 samples.

Results

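The genes described here are the 9 MHC class II genes H2-Aa, H2-Ab1, H2-Eb1, H2-DMa, H2-DMb1, H2-DMb2, H2-Oa, H2-Ob and Ciita. They were chosen by symbol for their place in class II antigen presentation, with earlier results of these data known. They were 9 of the 24319 entries of the deposited expression table, and all 9 passed the filter on low values. The RNA came from C57BL/6 livers, from cells that magnetic beads had captured by CD45, a protein on the surface of leukocytes. Every mouse, controls included, carried human c-Myc with human N-ras in the liver: plasmids of these oncogenes had been given on day 0 by hydrodynamic injection, which delivers DNA to hepatocytes. Control mice were given PBS into the peritoneum on days 14, 16, 18, 20 and 22 and 200 µg of IgG on days 17, 19 and 21. In the polyIC group the PBS was replaced by polyIC, a synthetic double-stranded RNA that mimics viral RNA, at 4 mg/kg, with the same IgG. In the antiPDL1 group the IgG was replaced by 200 µg of a PD-L1 antibody, with PBS kept. PD-L1 engages PD-1, a receptor that restrains T cells. The combination group received polyIC and the PD-L1 antibody. Euthanasia was placed on day 24 in the protocol text, while the time point label gives day 22. There were 3 libraries in each of the 4 groups, numbered 0, 1 and 2. The labels do not say whether the 3 came from separate mice, so the p-values measure only the spread between these libraries.

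MHC class II molecules are pairs of an alpha and a beta chain that display peptides from endosomes to CD4 T cells. H2-Aa and H2-Ab1 encode the chains of I-A, and H2-Eb1 encodes the beta chain of I-E. While a class II molecule is being built, its groove is filled by a fragment of the invariant chain (Cd74). H2-DM, made of H2-DMa with either H2-DMb1 or H2-DMb2, removes that fragment and helps the groove select tightly bound peptides. H2-O, made of H2-Oa and H2-Ob, inhibits H2-DM and is best known from B cells. Ciita is the coactivator that switches class II genes on. It does not bind DNA itself but sits on RFX, CREB and NF-Y proteins bound to the X and Y boxes of class II promoters. Dendritic cells, B cells and activated macrophages are the main class II cells of the liver's immune compartment.

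Because Ciita acts through these boxes, the promoters of the class II genes are shown first. RefSeq windows on GRCm38.p6, which run from 250 bases before to 50 bases after a start site, were found for 7 of the 9 genes. They were searched on both strands for TGATTGG, the core of the Y box, and AACNNNTGA, the core of the X box. The letters were chosen after reading these genes' own sequences, and the cores do not overlap each other in the windows printed. The 6 stretches below, each of 150 bases lying before a start site on chromosome 17, carry the Y box core, and 4 carry the X box core too. They are written 5′ to 3′ on the gene's own strand with both cores in capitals.
H2-Aa, chr17:34287824-34287973, minus strand: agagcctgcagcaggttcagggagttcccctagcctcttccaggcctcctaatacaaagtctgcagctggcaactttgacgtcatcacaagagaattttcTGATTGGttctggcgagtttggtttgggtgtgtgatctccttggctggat
H2-Eb1, chr17:34305717-34305866, plus strand: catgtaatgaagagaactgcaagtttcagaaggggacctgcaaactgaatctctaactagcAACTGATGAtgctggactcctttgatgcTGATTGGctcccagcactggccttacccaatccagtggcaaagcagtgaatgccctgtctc
H2-DMb1, chr17:34153041-34153190, plus strand: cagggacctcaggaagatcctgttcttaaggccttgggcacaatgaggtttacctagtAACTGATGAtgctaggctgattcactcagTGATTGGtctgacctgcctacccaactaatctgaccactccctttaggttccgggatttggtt
H2-DMb2, chr17:34145099-34145248, plus strand: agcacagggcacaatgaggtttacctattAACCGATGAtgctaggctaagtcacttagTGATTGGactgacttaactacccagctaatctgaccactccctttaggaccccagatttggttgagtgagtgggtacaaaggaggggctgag
H2-Oa, chr17:34092229-34092378, plus strand: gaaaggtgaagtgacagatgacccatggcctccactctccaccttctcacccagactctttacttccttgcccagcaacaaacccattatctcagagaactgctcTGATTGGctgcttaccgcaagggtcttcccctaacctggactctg
H2-Ob, chr17:34238755-34238904, plus strand: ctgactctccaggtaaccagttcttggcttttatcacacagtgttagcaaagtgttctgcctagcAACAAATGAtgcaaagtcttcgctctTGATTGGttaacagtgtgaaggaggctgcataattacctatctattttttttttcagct

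In H2-Eb1, H2-DMb1, H2-DMb2 and H2-Ob the X box core came first and the Y box core followed after 19, 20, 20 and 17 bases. The Y box core began 61, 63, 92 and 59 bases before the start site in these 4 genes. In H2-Aa it began 50 bases before the start and in H2-Oa 45, with no match to the X letters in either window. Neither core matched in the windows of H2-DMa. Of all 32851 mouse windows, 7.82% held the Y core, 11.9% the X core and 0.95% both. An X core followed by a Y core after 17 to 20 bases was found in 6 windows (0.0183%), of which 4 were the class II windows above and the others were those of 1700048F04Rik and BC051142. The gap was set from these 4 genes and the letters from class II sequences, so the 4 had to match and their number is no finding. Of aligned columns, gaps included, 59.2% were identical between the printed stretches of H2-DMb1 and its neighbour H2-DMb2. The share was 56.2% for H2-DMb1 and H2-Ob and 43.5% for H2-DMb2 and H2-Ob. For H2-DMb1 and H2-DMb2, 106 columns were identical, 15 mismatched and 58 gaps. For H2-DMb1 and H2-Ob these were 99, 25 and 52. Each stretch was cut at its gene's own start site, so the gaps depend on where the boxes lie, and the shares do not rank the promoters by likeness. A match is a run of letters and not a measured binding site.

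The values were taken as FPKM, read fragments scaled for transcript length and library size. Comparing levels between genes and between libraries assumes that this scaling held. How the libraries were scaled to each other is not given in the sources used here. The libraries summed to 476111 to 677535 FPKM, and the relative depth estimated from the smallest values ran from 0.469 to 1. The leukocyte gene Ptprc, which encodes CD45, was at 206 to 261 FPKM in the controls and 371 to 416 with polyIC. It was at 268 to 340 FPKM with antiPDL1 and 381 to 487 with the combination, so every treated library was above every control. By mean correlation over all genes, 3 libraries stood apart from their groups: control replicate 2 was closest to polyIC, antiPDL1 replicate 0 to the combination and antiPDL1 replicate 2 to the controls. Cd74 had to be left out, since its estimate failed in whole groups, as did those of 8 other genes. Differences below are on the log2(FPKM + 1) scale from a limma fit over all 12 libraries. Adjusted p-values are Benjamini-Hochberg values over the 11991 genes tested, and the threshold is 0.05. By this fit Ptprc was called higher in the combination against the controls, by 0.90 on the log2 scale. The part of this difference in the class II values was not tested.

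The 3 antigen-presenting chains were above the other class II genes described here in every library. By group mean they stood highest in the antiPDL1 group and lowest in the polyIC group. No difference between groups passed the test for any of them. H2-Aa was at 3499, 4147 and 4380 FPKM in the controls, 2946, 2924 and 2885 with polyIC, 6909, 7086 and 4419 with antiPDL1, and 5766, 3011 and 4138 with the combination. The polyIC libraries lay below every control and hardly differed among themselves, while the antiPDL1 and combination libraries spread widely. Group means were 4009 ± 456 FPKM in controls, 2918 ± 30.6 with polyIC, 6138 ± 1491 with antiPDL1 and 4305 ± 1385 with the combination (SD, n = 3 each).

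H2-Ab1, the partner of H2-Aa in I-A, was at 2604, 3249 and 3021 FPKM in the controls, 2281, 2470 and 1856 with polyIC, 5844, 6679 and 2752 with antiPDL1, and 4576, 2774 and 3362 with the combination. Again every polyIC library was below every control. Replicates 0 and 1 of antiPDL1 were above all other libraries, and its replicate 2 lay within the control range. H2-Eb1 was at 1467, 1777 and 1801 FPKM in the controls, 1294, 1437 and 1276 with polyIC, 3054, 3558 and 1851 with antiPDL1, and 2668, 1422 and 2003 with the combination. Its antiPDL1 libraries were all above the controls, replicate 2 only narrowly. The ratio of H2-Eb1 to H2-Ab1 kept within 0.513 and 0.688 over the 12 libraries, and that of H2-Aa to H2-Ab1 within 1.06 and 1.61. The order of the group means for all 3 chains was antiPDL1, combination, control, polyIC, and of the neighbours in that order only control and polyIC did not overlap.

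In bulk RNA of this kind, fewer cells of a type and less RNA per cell cannot be told apart. The I-E alpha chain is known to be missing from C57BL/6 mice, and the entry H2-Ea-ps was at 0 to 0.11 FPKM, so it was not tested. H2-Eb2, a further beta chain gene of the locus, was at 3.70 to 18.5 FPKM and passed the test in no comparison. Together the 9 genes made up 2.02% ± 0.272 of the FPKM total without the small RNA Mir6236 in controls, 1.34% ± 0.068 with polyIC, 2.71% ± 0.471 with antiPDL1 and 1.98% ± 0.591 with the combination (SD, n = 3 each). In this share, too, every polyIC library lay below every control.

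**Figure D1:**
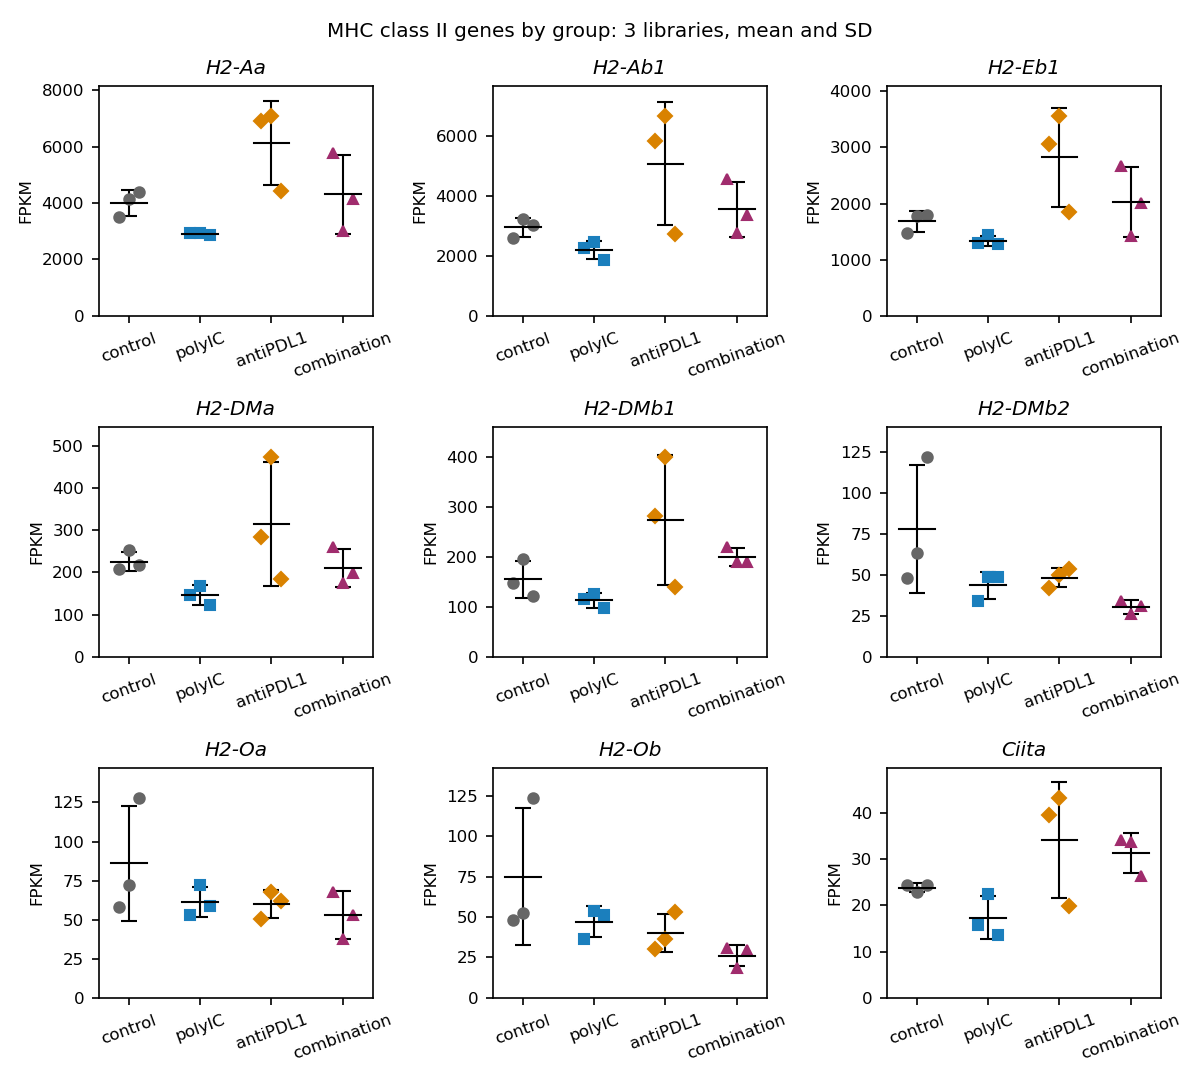
FPKM of each MHC class II gene (vertical axes, from 0) in the 4 groups: points are the 3 libraries of a group, the long bar is their mean and the whiskers the SD. The polyIC libraries of H2-Aa, H2-Ab1 and H2-Eb1 lie below every control, and antiPDL1 replicate 2 lies below the other antiPDL1 libraries in these genes and in H2-DMa, H2-DMb1 and Ciita.

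Among the editors of the peptide groove, H2-DMa and H2-DMb1 followed the chains, whereas H2-DMb2 did not. H2-DMa was at 207, 252 and 217 FPKM in the controls, 147, 169 and 123 with polyIC, 285, 473 and 184 with antiPDL1, and 261, 174 and 198 with the combination. All polyIC libraries were below all controls, and antiPDL1 replicate 2 was below the controls as well. H2-DMb1 was at 148, 196 and 123 FPKM in the controls, 117, 127 and 97.3 with polyIC, 282, 401 and 140 with antiPDL1, and 221, 189 and 190 with the combination. The groups that neighbour each other in the order of its means all overlapped.

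H2-DMb2, the alternative beta chain, was at 48.4, 63.6 and 122 FPKM in the controls, 34.1, 48.5 and 48.6 with polyIC, 42.1, 49.8 and 53.4 with antiPDL1, and 34.3, 26.2 and 31.3 with the combination. Control replicate 2 was far above all other libraries, and every combination library was below every control and every antiPDL1 library. H2-DMb2 fell in the combination group, from 78.0 ± 38.9 to 30.6 ± 4.09 FPKM (SD, n = 3 each), a log2 difference of -1.22 (SE 0.290; limma adjusted p = 0.0111). Without control replicate 2 the difference was -0.85 and the adjusted p 0.0115. H2-DMb1 and H2-DMb2 share sequence: of the runs of 50 bases in their GENCODE M21 transcripts, 22.7% of those of H2-DMb1 also occur in H2-DMb2, and 21.2% the other way. How the authors' counting split such fragments is not given in the sources used here, so the level of each is uncertain.

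H2-Oa and H2-Ob, the chains of the H2-DM inhibitor, resembled H2-DMb2. H2-Oa was at 57.9, 72.3 and 128 FPKM in the controls, 53.0, 71.9 and 58.9 with polyIC, 50.7, 68.0 and 61.8 with antiPDL1, and 67.9, 37.7 and 53.2 with the combination. Every pair of neighbouring groups overlapped, and the control mean of 86.0 ± 36.9 FPKM (SD, n = 3) was raised by replicate 2. H2-Ob was at 48.2, 52.5 and 124 FPKM in the controls, 36.3, 53.9 and 51.3 with polyIC, 30.5, 36.7 and 53.1 with antiPDL1, and 30.6, 18.5 and 29.4 with the combination. Every combination library was below every control and every polyIC library. H2-Ob fell in the combination group, from 74.8 ± 42.3 to 26.2 ± 6.65 FPKM (SD, n = 3 each), a log2 difference of -1.38 (SE 0.352; limma adjusted p = 0.0155). The difference was -0.95 without control replicate 2 (adjusted p = 0.0250), and without combination replicate 1 it was -1.15 and no longer passed (adjusted p = 0.0689). H2-Oa differed by -0.65 (SE 0.291; limma adjusted p = 0.113) and did not pass.

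Ciita, the coactivator, was at 24.3, 22.8 and 24.4 FPKM in the controls, 15.8, 22.5 and 13.6 with polyIC, 39.4, 43.2 and 19.9 with antiPDL1, and 34.0, 33.6 and 26.4 with the combination. The controls were close together, the polyIC libraries were all below them and the combination libraries all above, and antiPDL1 replicate 2 stood below the controls while its other libraries stood highest. No comparison passed the test. The smallest adjusted p for Ciita was that of the combination against polyIC, with a log2 difference of 0.84 (SE 0.269; limma adjusted p = 0.159). The table has 1 value for the gene, so the levels of its separate promoters were not analysed here.

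**Figure D2:**
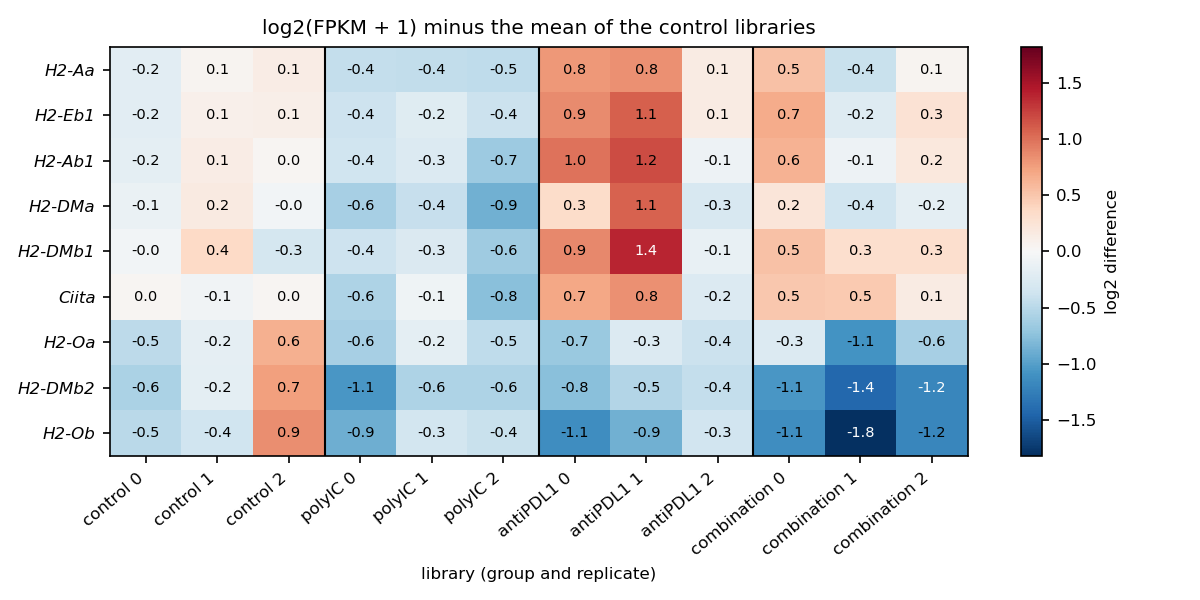
Difference of each library (columns) from the control mean for each MHC class II gene (rows), in log2(FPKM + 1) units, with the colour scale and the printed value showing the same number. The upper 6 rows are above 0 in antiPDL1 replicates 0 and 1, while H2-Oa, H2-DMb2 and H2-Ob are below 0 in all polyIC, antiPDL1 and combination libraries.

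PolyIC alone was compared with the controls to see what double-stranded RNA did without the antibody. By limma, 0 of the 9 class II genes passed, where 3.64% of all genes tested did in either direction, and 1 of 9 (H2-DMb2) had an unadjusted p under 0.05, where 22.2% of all genes did. All 9 differences were negative, from -0.33 for H2-Eb1 to -0.73 for H2-DMb2, with a median of -0.45 against a median of -0.014 over all genes tested. For H2-Aa, H2-Ab1, H2-Eb1, H2-DMa and Ciita the groups did not overlap, 5 of 9 where 12.4% of all genes lay lower without overlap. Differences of this size could not be told from the spread between libraries in this fit: the SEs were 0.269 to 0.352.

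For the PD-L1 antibody alone against the controls, limma again called 0 of 9, where it called 0.208% of all genes. An unadjusted p under 0.05 was reached by 2 of 9 (H2-Eb1 and H2-Ob), against 17.0% of all genes. The chains, H2-DMa, H2-DMb1 and Ciita had positive differences, from 0.37 for H2-DMa to 0.71 for H2-DMb1, and H2-Oa, H2-DMb2 and H2-Ob had negative ones of -0.44, -0.57 and -0.78. H2-Aa and H2-Eb1 lay higher without overlap, 2 of 9 where 4.61% of all genes did, and 0 of 9 lay lower, where 7.89% did. The count of calls turned on antiPDL1 replicate 2. Without it limma called 4 of 9 higher: H2-DMb1 at 1.13 (adjusted p = 0.0109), H2-Ab1 at 1.08 (adjusted p = 0.0206), Ciita at 0.77 (adjusted p = 0.0277) and H2-Eb1 at 0.98 (adjusted p = 0.0302). The calls over all genes rose as well when it was left out, from 25 to 2089, and to 306 without control replicate 2. The 25 were all lower, while the 2089 were 1429 higher and 660 lower. Without any other single library, limma called 0 of 9.

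With polyIC and the antibody together against the controls, limma called 2 of 9 lower, H2-DMb2 and H2-Ob, and 0 higher. Over all genes tested it called 16.3% lower, 13.1% higher and 29.4% in either direction, so the share of class II genes called was near the background. An unadjusted p under 0.05 was reached by 3 of 9, where 42.6% of all genes reached it. H2-Aa, H2-Ab1 and H2-Eb1 were at 0.06, 0.25 and 0.23 on the log2 scale (limma adjusted p = 0.894, 0.609 and 0.577). Quantile normalization turned the H2-Aa value to -0.47 and that of H2-Eb1 to -0.0019. H2-DMa was at -0.11, H2-DMb1 at 0.38 and Ciita at 0.37. Ciita was the only member higher without overlap, 1 of 9 where 25.6% of all genes were, and H2-DMb2 and H2-Ob were lower without overlap, 2 of 9 where 20.3% were. The median over the 9 genes was 0.06, and that over all genes was 0.054.

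Against polyIC alone, the combination gave positive differences for the chains, H2-DMa, H2-DMb1 and Ciita, from 0.51 to 0.84, and negative ones for H2-Oa, H2-DMb2 and H2-Ob, from -0.84 to -0.23. Limma called 0 of 9, where it called 1.23% of all genes, and 3 of 9 (H2-DMb1, H2-Ob and Ciita) had an unadjusted p under 0.05, against 13.5% of all genes. H2-Aa, H2-Ab1, H2-DMa, H2-DMb1 and Ciita lay higher without overlap, 5 of 9 where 13.3% of all genes did, and H2-Ob lay lower, 1 of 9 where 16.1% did. AntiPDL1 replicate 2 is in neither group of this comparison, but it enters the shared estimate of the spread and the filter on low values. Leaving it out brought Ciita past the threshold (limma adjusted p = 0.0285). Against the antibody alone, all 9 differences were negative, from -0.65 for H2-DMb2 to -0.06 for Ciita. Limma called 0 of 9 and 0.125% of all genes, and 1 of 9 (H2-DMb2) had an unadjusted p under 0.05, against 14.4%. H2-DMb2 lay lower without overlap, 1 of 9 where 12.1% of all genes did, and 0 of 9 lay higher, where 8.28% did. These comparisons share libraries with the ones above. The interaction term, which asks whether the agents together differ from the sum of their separate differences, was called by limma for 0 of 9 genes (0.025% of all genes), with values from -0.14 to 0.41, and 0 of 9 had an unadjusted p under 0.05, against 2.44%.

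**Figure D3:**
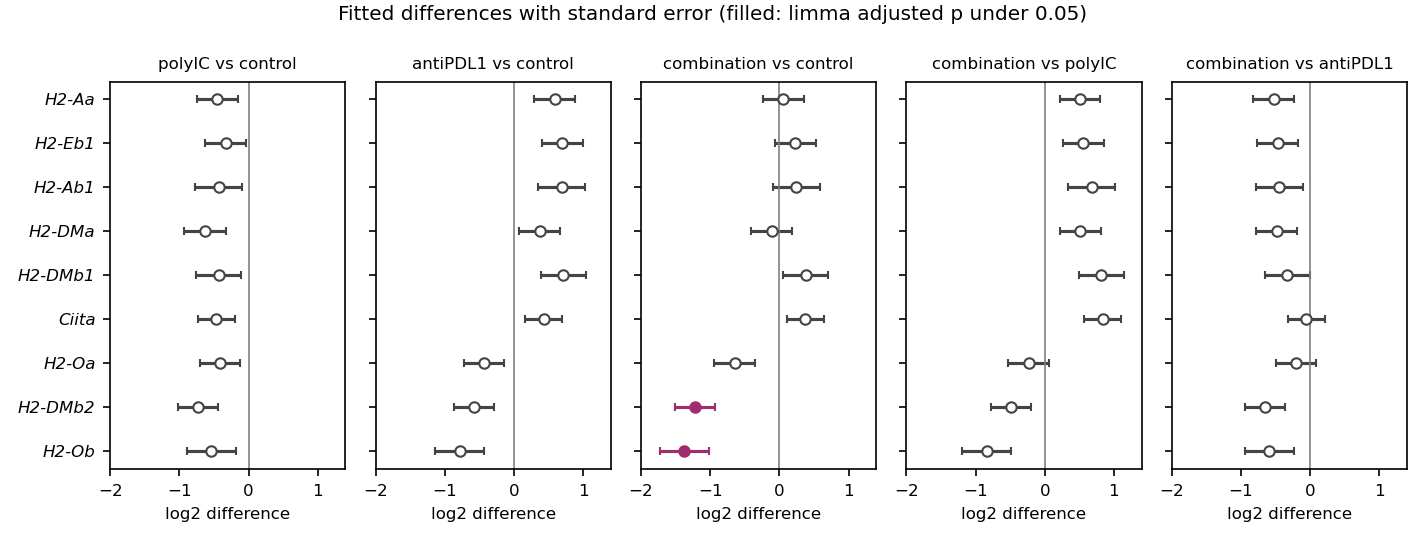
Fitted log2(FPKM + 1) differences (horizontal axes) of the MHC class II genes in 5 comparisons, with bars of 1 standard error and filled points where the limma adjusted p was under 0.05. The filled points are H2-DMb2 at -1.22 and H2-Ob at -1.38, for the combination against the controls.

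Within the class II system, the levels of H2-DMb2 and H2-Ob relative to H2-DMb1 shifted from library to library more than the chains' own ratios did. H2-DMb2 made up 24.7%, 24.5% and 49.9% of the summed H2-DMb in the controls, 22.6%, 27.7% and 33.3% with polyIC, 13.0%, 11.1% and 27.7% with antiPDL1, and 13.4%, 12.1% and 14.2% with the combination. Each combination library was below each control and each polyIC library. H2-Ob per 100 FPKM of H2-DMb1 was at 32.7, 26.7 and 101 in the controls, 31.1, 42.6 and 52.7 with polyIC, 10.8, 9.16 and 38.0 with antiPDL1, and 13.8, 9.79 and 15.5 with the combination, an 11.0-fold range. That range belongs to this pair and its top is control replicate 2. With H2-DMb2, the other beta chain, H2-Ob correlated at 0.945 (Pearson's r over the 12 libraries). For the alpha chains, H2-Oa per 100 FPKM of H2-DMa had a 4.09-fold range. The ratio of H2-Ob to H2-Oa was at 0.833, 0.725 and 0.966 in the controls, 0.685, 0.750 and 0.871 with polyIC, 0.602, 0.540 and 0.859 with antiPDL1, and 0.450, 0.492 and 0.553 with the combination. So H2-Ob, and not H2-Oa to the same degree, was low in the combination libraries. The ratio of H2-DMa to the summed H2-DMb stayed within 0.807 and 1.06 over all 12 libraries and overlapped in every comparison. These ratios were formed after the genes' values were seen and carry no test of their own.

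**Figure D4:**
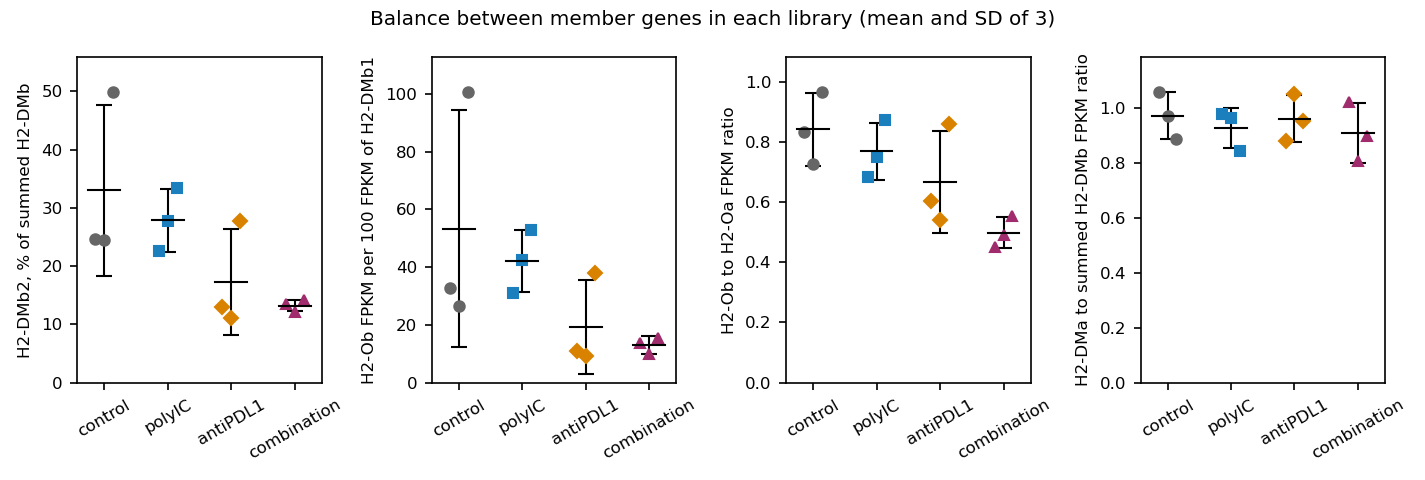
Balances between MHC class II genes in each library (points), with group mean and SD (bars), on axes from 0: the percentage of H2-DMb2 in summed H2-DMb, H2-Ob per 100 FPKM of H2-DMb1, the ratio of H2-Ob to H2-Oa, and the ratio of H2-DMa to summed H2-DMb. The combination libraries lie below every control in the first 3 panels, and the ratio in the last panel stays between 0.807 and 1.06.

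Over the 12 libraries the 9 genes fell into a pair of patterns, given here as a description: the libraries share their groups, and control replicate 2 or antiPDL1 replicates 0 and 1 carry much of the spread. Pearson's r of the mean of the 3 chains was 0.918 with H2-DMa, 0.897 with H2-DMb1 and 0.828 with Ciita, and 0.037 with H2-DMb2, 0.122 with H2-Oa and -0.19 with H2-Ob. Without antiPDL1 replicates 0 and 1, the libraries farthest from the median of the chains, these became 0.862, 0.738 and 0.661, and 0.069, 0.320 and -0.024. So the split was weaker without these libraries. H2-Ob correlated with H2-DMb2 at 0.945 and with H2-Oa at 0.892. Without control replicate 2 and combination replicate 1, the libraries farthest from the median of H2-Ob, these became 0.809 and 0.487.

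The genes whose pattern was most like the mean of the chains were Cass4 (r = 0.937), Tspan33 (0.929), Gm2a (0.925), Tapbp (0.890), Anpep (0.889), Ppt1 (0.887), Hnrnpa3 (0.886) and Lmo4 (0.884). Tapbp encodes tapasin, which loads peptide onto class I molecules, and it was also among the genes most like Ciita. Those were Csrnp1 (0.964), Mapkapk2 (0.955), Tubb6 (0.952), Tapbp (0.948) and Rnf19b (0.948). None of these 12 genes passed the test in any of the 6 comparisons. Among the genes most like H2-Ob were Blnk (0.984), Cr2 (0.983), Rnf122 (0.978) and Smim14 (0.971). Blnk encodes an adaptor of B cell receptor signalling, and Cr2 a complement receptor of B cells. These 4 fell in the combination group against the controls, by 0.89 on the log2 scale for Smim14 (limma adjusted p = 0.00860) to 2.08 for Blnk (limma adjusted p = 0.00508).

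The B cell marker list fell in the combination group, as H2-Ob and H2-DMb2 did. H2-Oa followed it less closely. Combination replicate 0 had 67.9 FPKM of H2-Oa against 57.9 in control replicate 0, although its B cell sum was lower. All 13 B cell markers were called lower by limma in the combination against the controls, with a median of -2.32. In that comparison 16.3% of all genes were called lower. The summed level of the B cell markers was 582 to 1486 FPKM in the controls, 316 to 523 with polyIC, 224 to 565 with antiPDL1 and 104 to 202 with the combination. The highest sum was that of control replicate 2 and the lowest that of combination replicate 1, as for H2-Ob. No B cell marker was at 0 in any library. The part of the B cell markers in the fall of H2-Ob and H2-DMb2 was not tested. Plasmacytoid dendritic cell markers, 5 of 6 called lower, summed to 286 to 657 FPKM in the controls and 56.6 to 166 with the combination. Markers of conventional dendritic cells, 5 of 10 called lower, summed to 311 to 472 FPKM in the controls, 184 to 275 with polyIC, 283 to 346 with antiPDL1 and 143 to 246 with the combination.

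Kupffer cells are the resident macrophages of the liver. Of the 10 usable Kupffer markers, limma called 8 lower in the combination against the controls (median -3.29). In that comparison, to which the calls below also belong, it called 16.3% of all genes lower and 13.1% higher. The Kupffer markers summed to 3891 to 17163 FPKM in the controls, 4112 to 4651 with polyIC, 3372 to 10999 with antiPDL1 and 1585 to 2802 with the combination. Control replicate 2 had the lowest Kupffer sum of the controls, 3891 FPKM. Among the controls, H2-Aa, H2-Eb1, H2-DMb2, H2-Oa, H2-Ob and, narrowly, Ciita were highest in that library. H2-Ab1 and H2-DMa were not, and H2-DMb1 was lowest there. Of 8 monocyte and macrophage markers, 3 were called higher and 1 lower in the combination, and they summed to 1071 to 1653 FPKM in the controls and 1295 to 1580 with the combination. Hepatocyte markers, which trace liver cells carried along, summed to 1306 to 3645 FPKM in the controls and 187 to 291 with the combination, and all 5 were called lower. The 7 T cell markers were all called higher in the combination, and they summed to 268 to 807 FPKM in the controls and 2008 to 2558 with the combination. None of the usable markers in these lists was at 0 in any library; Cd5l, a Kupffer marker left out, is listed at 0 in all controls. The part of these markers in the class II values was not tested.

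**Figure D5:**
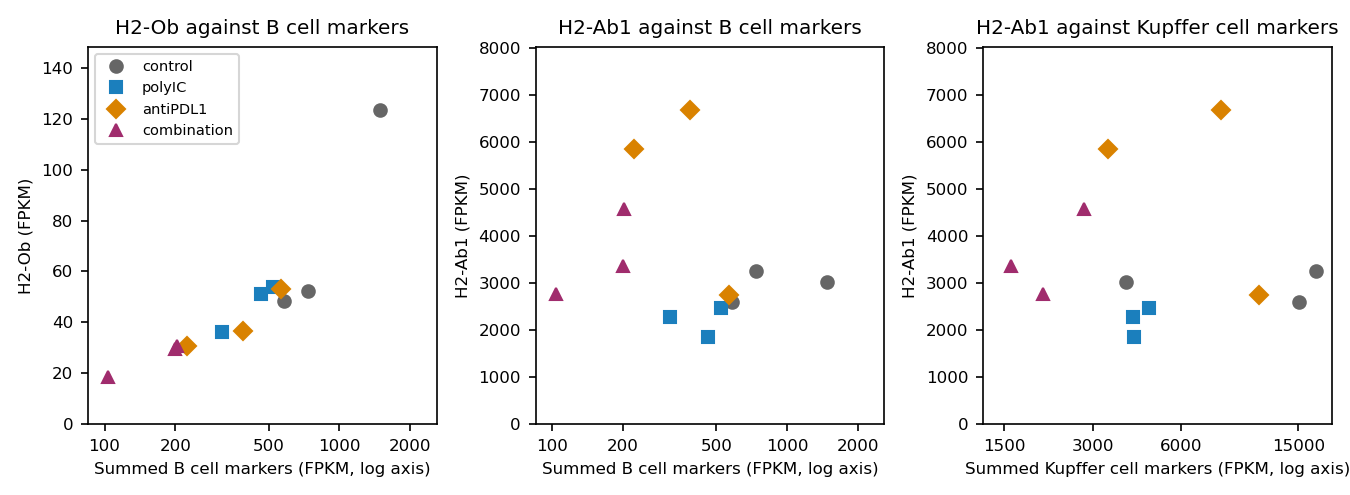
H2-Ob and H2-Ab1 (vertical axes, FPKM) against the summed FPKM of B cell markers and H2-Ab1 against that of Kupffer cell markers (horizontal log axes), 1 point per library. H2-Ob is highest in control replicate 2, where the B cell sum is 1486 FPKM, and lowest in combination replicate 1, where it is 104 FPKM; the highest H2-Ab1 values, 5844 and 6679 FPKM in antiPDL1 replicates 0 and 1, fall at B cell sums of 224 and 387 FPKM.

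Interferon gamma is the best known inducer of Ciita. Ifng, which encodes interferon gamma, was at 8.52, 13.6 and 16.8 FPKM in the controls, 35.2, 34.8 and 21.6 with polyIC, 37.8, 37.2 and 19.1 with antiPDL1, and 82.6, 151 and 135 with the combination. Every treated library was above every control. Of the 9 genes of the interferon gamma route, limma called 3 higher in the combination against the controls and 0 lower, where it called 13.1% of all genes higher and 16.3% lower. Among the 3 were Ifng by 3.15 (SE 0.339; adjusted p = 0.000771) and the transcription factor Irf1 by 1.08 (SE 0.374; adjusted p = 0.0493). The receptor genes did not pass: Ifngr2 was at 46.0, 42.9 and 41.2 FPKM in the combination, below the 60.9, 59.1 and 48.7 of the controls (log2 difference -0.36; limma adjusted p = 0.0931). Ifngr1 differed by -0.31 (limma adjusted p = 0.235). Ifng was also higher than with polyIC alone, by 1.96 (limma adjusted p = 0.0375). In antiPDL1 replicate 2, which stood near or below the controls in the chains and Ciita, Irf1 at 112 FPKM and Socs1, a feedback inhibitor of the pathway, at 7.79 FPKM were within or below the control range as well. The other antiPDL1 libraries had 232 and 360 FPKM of Irf1 and 28.1 and 53.4 FPKM of Socs1.

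Of the 7 genes for the proteins that bind the X and Y boxes, limma called 1 higher in the combination against the controls and 0 lower, a share near the 13.1% of all genes called higher. It was Nfyb, an NF-Y subunit, at 16.7 ± 4.02 FPKM in the controls and 35.2 ± 2.44 with the combination (SD, n = 3 each; log2 difference 1.05, adjusted p = 0.00442). Rfx5, the largest RFX subunit, differed by -0.05 (limma adjusted p = 0.834). Of the 6 genes known to act on the Ciita promoters, limma called 1 higher and 1 lower in the same comparison. These shares were near the 13.1% of all genes called higher and the 16.3% called lower. Prdm1, a repressor of Ciita in plasma cells, rose by 1.81 on the log2 scale (limma adjusted p = 0.00309). Pax5, which defines B cells and is also in the B cell marker list, fell by 2.58 on the log2 scale (limma adjusted p = 0.00277). The other 4 did not pass.

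Of the 10 genes for peptide supply and class II turnover, 6 could be used. Limma called 3 of the 6 lower in the combination against the controls and 0 higher, where it called 16.3% of all genes lower and 29.4% in either direction. They were the lysosomal proteases Ctsl, by -1.95 (adjusted p = 0.00504), and Lgmn, by -1.42 (adjusted p = 0.0379), and Cd83, which protects class II from breakdown, by -1.28 (adjusted p = 0.00923). Cd83 was lower with polyIC alone too, by -1.30 (limma adjusted p = 0.0353), at 25.6, 31.0 and 24.0 FPKM against 74.8, 77.3 and 53.1 in the controls. Ctss, the protease that cuts the invariant chain in dendritic and B cells, differed by -0.09 in the combination (limma adjusted p = 0.821). Of the receptors that bind class II, Cd4 rose by 1.24 on the log2 scale (limma adjusted p = 0.00781) and Lag3 by 3.10 (limma adjusted p = 0.00321), beside the T cell markers above.

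Class I presentation was set beside class II with 9 genes. Against the controls, limma called 3 of the 9 higher in the combination and 0 lower, where it called 13.1% of all genes higher and 29.4% in either direction. They were the class I coactivator Nlrc5 by 0.79 (adjusted p = 0.0348), the peptide transporter gene Tap1 by 1.26 (adjusted p = 0.0272) and the immunoproteasome gene Psmb8 by 1.10 (adjusted p = 0.0448). The median of the 9 class I genes was 0.38 with polyIC, 0.52 with antiPDL1 and 0.79 with the combination, and that of the 9 class II genes was -0.45, 0.43 and 0.06 in the same order. The difference between these lists was not tested.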

How the data were processed

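The authors deposited 1 table with an FPKM value per gene and library. The table's columns name no unit, and FPKM was taken from the tool named and from the values. Cuffdiff and the mouse build mm9 are named in the submitters' processing notes. The sources used here do not give the aligner, the annotation or how libraries were scaled to each other. FPKM are not counts, so no count model was used. The 9 genes and all lists were chosen with earlier results of these data known.

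Entries at 0 in a whole group while every library of another reached 5 FPKM were read as failed estimates, and 9 were dropped. A gene was kept if at least 3 libraries reached 1 FPKM. log2(FPKM + 1) was fitted with limma 3.58.1 (R 4.3.3, with trend) over the 4 groups, two-sided, with Benjamini-Hochberg adjustment, and the script was tested on simulated data. This scale understates the change of low genes. All 9 genes are named. So are up to 3 genes per pathway list that passed, Ifng, Irf1, Rfx5, Nlrc5, Ctss and H2-Ea whatever they showed, and the genes most alike over 12 libraries (8 for the chains, 5 each for Ciita and H2-Ob); some genes that the rule names are not reported here. Socs1 and H2-Eb2 were added after their values were seen. As 27 gene names had turned into dates, Marchf1 and Marchf8 were not analysed here. Alternatives were another pseudocount, other filters and scalings, narrower fits, array quality weights, a block for the replicate number and left-out libraries.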

Additional observations from a re-analysis of the deposited data

How the results depend on the processing

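Of 1125 alternative values for the 54 differences (9 genes, 6 comparisons; up to 21 settings), 1041 kept their direction and their side of the threshold, 31 came past it, 1 dropped below it and 52 changed sign. H2-DMb2 was called lower in the combination against the controls in 21 of 21 settings (-1.51 to -0.85; limma adjusted p 0.000433 to 0.0499) and H2-Ob in 20 of 21 (-1.62 to -0.95; limma adjusted p 0.000580 to 0.0689). For the values below that moved, the cause was not tested, except that filters change how many genes are tested and left-out libraries how many samples.

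With array quality weights, 2 class II genes were called lower for polyIC against the controls, beside 1617 higher and 1822 lower over all genes. For antiPDL1, 4 were called higher, beside 1227 higher and 1358 lower over all genes. For the combination, 1 was called higher (Ciita) and 3 lower, beside 3729 and 3154 over all genes. In the combination against polyIC, 2 were called higher and 2 lower, beside 1868 and 1786 over all genes. Against antiPDL1, 4 were called lower, beside 347 higher and 471 lower over all genes. A fit of only the groups compared called 2 in the combination against polyIC. Without control replicate 2 and antiPDL1 replicate 2 together, a choice made after seeing the data, 5 class II genes were called higher with antiPDL1. Over all genes that fit called 1720 higher and 1565 lower. In the combination against polyIC it called 2 class II genes higher (Ciita and H2-DMb1) and 1 lower (H2-Ob). Over all genes it called 259 higher and 857 lower there. Leaving out 1 library gave 0 to 0 called for polyIC, 0 to 4 for antiPDL1, 1 to 2 for the combination, 0 to 1 against polyIC, 0 to 0 against antiPDL1 and 0 to 0 for the interaction.

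All genes called for polyIC (437) became 212 with a mean of at least 5 FPKM, 783 with quantile normalization, 3439 with weights and 2801 without both libraries. For antiPDL1 (25) they became 139 with no filter, 5 with the mean filter, 2 with only the groups compared, 2585 with weights and 3285 without both libraries. For the combination (3527) they became 1963 with the mean filter and 6883 with weights; quantile normalization called 2004 higher and 1644 lower in place of 1576 and 1951. Against polyIC (148) they became 344 with a pseudocount of 0.1, 26 with no filter, 77 with the mean filter, 6 with quantile normalization (4 higher and 2 lower in place of 20 and 128), 1352 with only the groups compared, 3654 with weights and 1116 without both libraries. Against antiPDL1 (15) they became 31 with no filter, 6 with the mean filter, 30 with median-of-ratios rescaling, 1 with only the groups compared, 818 with weights and 88 without both libraries. For the interaction (3) they became 1 with the mean filter, 13 with weights and 5 without both libraries. Leaving out 1 library gave 40 to 1844, 0 to 2089, 1681 to 4442, 0 to 536, 0 to 329 and 0 to 5 in the same order.

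With the replicate number as a block, H2-DMb2 and H2-Ob were again the class II genes called in the combination against the controls, and the calls over all genes became 7 against polyIC and 1 against antiPDL1. Of 18 same-numbered pairs of libraries, 4 correlated over 0.1 in their deviations (-0.284 to 0.31), and 6 of 12 libraries correlated best with their own number.

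Signs that changed, none past the threshold, were these. In the combination against the controls, H2-Aa was -0.47 with quantile normalization and -0.27 with weights, H2-Ab1 -0.0389 with weights, and H2-Eb1 -0.0019 and -0.12. For the interaction, quantile normalization gave 0.0103 for H2-Aa and 0.0692 for H2-Ab1; weights gave -0.21 for H2-DMa, -0.0817 for H2-DMb1, -0.12 for H2-DMb2 and -0.22 for H2-Oa; and without both libraries these 4 were -0.16, -0.16, -0.22 and -0.0959. Leaving out 1 library gave, in the combination against the controls, -0.177 to 0.292 for H2-Aa and -0.276 to 0.0148 for H2-DMa. Against antiPDL1 it gave -0.749 to 0.0084 for H2-DMb1, -0.407 to 0.0098 for H2-Oa and -0.395 to 0.145 for Ciita. For the interaction it gave -0.315 to 0.154 for H2-Aa, -0.408 to 0.231 for H2-Ab1, -0.417 to 0.0937 for H2-Eb1, -0.187 to 0.492 for H2-DMa, -0.317 to 0.440 for H2-DMb1, -0.295 to 0.364 for H2-DMb2, -0.121 to 0.444 for H2-Oa and -0.480 to 0.189 for H2-Ob.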
